A study of Mus musculus with 2 samples.

Results

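The Aurora and Polo kinases, the partner Tpx2 and the subunits of the chromosomal passenger complex were followed through the cell cycle of dividing mouse neural progenitor cells. The group holds 8 genes picked by symbol, Aurka, Aurkb, Birc5, Cdca8, Incenp, Plk1, Plk4 and Tpx2, and 7 of them were analysed among the 10666 genes of the expression table. Plk1 was not analysed here. The lines of 6 genes peaked at or just after π of the cycle (end of G2), and that of Plk4 earlier, at 0.908π. They then parted: in the stretch from 1.25π to 1.5π of the cycle, Cdca8, Birc5 and Tpx2 transcripts were still at a mean of 70.6%, 52.8% and 59.4% of their level in the stretch from π to 1.25π, where Aurkb, Incenp, Aurka and Plk4 stood at 7.39%, 14.3%, 15.1% and 25.2% (means of 2 cultures).

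The cells came from neurospheres, which are balls of dividing neural stem cells and progenitors in suspension. They were set up from dorsal telencephalon of C57BL/6 wild-type embryos at embryonic day 14.5 with EGF and bFGF at 10 ng/ml each. Droplet 3′ single-cell RNA-seq was run on 2 replicate cultures of this 1 condition, with 5748 and 7057 cells. The labels name version 2 of the Chromium kit where the paper names version 3, and nothing states that the cultures came from separate animals, so the spread between them may be technical. With 1 condition there was no group to test, cells were not treated as replicates, and values are given for each culture or as a mean ± SD (n = 2). Cells had a median of 19477 UMIs in culture 1 and 14637 in culture 2, and 48 cell barcodes occurred in both. Of the progenitor markers, Fabp7, Vim and Nes had a value above 0 in 89.8% to 100% of cells and Pax6 in 21.1% and 23.1%, while Olig2, of the oligodendrocyte lineage, had one in 97.3% and 91.9%. Other genes of that lineage were seen in few cells, Pdgfra in 8.77% and 1.81% and Sox10 in 4.26% and 0.751%. The neuronal markers Dcx, Rbfox3 and Gad1 were seen in 0.709% to 7.34% of cells.

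Aurora and Polo kinases drive entry into mitosis, build the spindle and time the separation of the chromosomes. Aurka works at centrosomes and spindle poles and is activated there by Tpx2, a microtubule-binding protein that the Ran pathway releases around chromosomes. Aurkb is the kinase of the chromosomal passenger complex, in which Incenp is the scaffold and activator, and Birc5 (survivin) and Cdca8 (borealin) bring the complex to centromeres and later to the spindle midzone. Plk4 is the kinase that starts the duplication of centrioles. In dividing cells these genes are transcribed mainly between S phase and mitosis, and most of the proteins are destroyed as mitosis ends.

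The genes lie apart in the mouse genome (GRCm38, GENCODE annotation). Aurka (ENSMUSG00000027496) is at chr2:172356190-172370535 on the minus strand and Tpx2 (ENSMUSG00000027469) at chr2:152847964-152895321 on the plus strand. Aurkb (ENSMUSG00000020897) is at chr11:69045647-69051664 and Birc5 (ENSMUSG00000017716) at chr11:117849251-117855743, both on the plus strand. Incenp (ENSMUSG00000024660) is at chr19:9872296-9899551 and Cdca8 (ENSMUSG00000028873) at chr4:124918465-124939311, both on the minus strand, and Plk4 (ENSMUSG00000025758) is at chr3:40800019-40816883 on the plus strand. Cdca8 shares 2264 bases with 9930104L06Rik, a gene on the opposite strand whose own R² with the position was 0.00102 and 0.00149, far from the value for Cdca8 below. Incenp shares 1208 bases with AC132253.8, an uncharacterized entry on the same strand, so reads there cannot be assigned to one of them with certainty.

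To show sequence next to the expression data, the promoter windows that RefSeq gives for 4 of them are shown (GRCm38.p6, 250 bases before to 50 after the start, in the direction of the gene). They are chr2:172370521-172370820 on the minus strand for Aurka, chr11:117848987-117849286 on the plus strand for Birc5, chr4:124936868-124937167 on the minus strand for Cdca8 and chr3:40799701-40800000 on the plus strand for Plk4. Aurkb, Incenp and Tpx2 are named only. Capitals mark exact matches, on either strand, to the cell-cycle homology region (CHR, TTTGAA), the CCAAT box (CCAAT, read ATTGG on the other strand) and an E2F-type motif (TTNGCGC).
Aurka: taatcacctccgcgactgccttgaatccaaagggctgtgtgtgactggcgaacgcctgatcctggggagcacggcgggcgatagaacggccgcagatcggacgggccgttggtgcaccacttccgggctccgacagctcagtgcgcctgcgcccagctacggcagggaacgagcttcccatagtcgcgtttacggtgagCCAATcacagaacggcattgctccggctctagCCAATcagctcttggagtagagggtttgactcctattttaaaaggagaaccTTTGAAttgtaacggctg
Birc5: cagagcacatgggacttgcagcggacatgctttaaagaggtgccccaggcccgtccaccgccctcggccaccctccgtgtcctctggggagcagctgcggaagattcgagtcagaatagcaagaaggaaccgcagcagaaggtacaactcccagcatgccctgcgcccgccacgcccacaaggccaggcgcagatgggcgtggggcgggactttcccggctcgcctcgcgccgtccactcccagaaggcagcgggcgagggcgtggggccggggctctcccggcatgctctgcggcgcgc
Cdca8: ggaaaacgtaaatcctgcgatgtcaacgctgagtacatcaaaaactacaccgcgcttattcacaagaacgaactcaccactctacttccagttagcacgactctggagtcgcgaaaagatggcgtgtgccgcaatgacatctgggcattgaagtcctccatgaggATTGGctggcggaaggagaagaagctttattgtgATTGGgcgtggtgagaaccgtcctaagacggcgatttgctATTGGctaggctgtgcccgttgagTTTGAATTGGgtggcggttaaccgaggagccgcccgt
Plk4: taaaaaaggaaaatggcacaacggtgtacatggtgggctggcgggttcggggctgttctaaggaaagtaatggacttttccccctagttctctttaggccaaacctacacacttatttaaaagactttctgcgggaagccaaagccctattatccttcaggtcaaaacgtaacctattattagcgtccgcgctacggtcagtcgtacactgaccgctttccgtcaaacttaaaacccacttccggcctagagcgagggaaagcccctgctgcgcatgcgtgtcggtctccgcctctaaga
The Aurka window holds CCAAT from bases 200 and 232 and TTTGAA from base 283 of the window. The Cdca8 window holds ATTGG from bases 166, 200, 240 and 269 and TTTGAA from base 264, and the last base of TTTGAA is the first of the ATTGG from base 269. The Birc5 and Plk4 windows hold none of the 3 motifs, and no window of the 4 holds the E2F-type motif. Of 32817 mouse promoter windows of this length, 17.9% hold TTTGAA, 37.4% hold CCAAT and 6.36% hold TTNGCGC. These are matches of letters and say nothing on binding.

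The position of each cell in the cycle is the angle, from 0 to 2π, that the authors computed with tricycle from cell-cycle genes of the same cells. On this circle S phase begins near 0.5π. The paper places the end of G2 around π and the middle of M later on the circle. G1 and G0 lie beyond about 1.75π. The border between G2 and M was not examined here. In the arc from 1.75π to 2π, Aurkb was seen in 3.35% of 1789 cells in culture 1 and 1.87% of 3149 in culture 2 (exact 95% binomial intervals 2.57 to 4.30 and 1.43 to 2.41, counting error only). The shares there were 5.25% and 3.27% for Aurka, 7.71% and 5.11% for Incenp, 6.04% and 5.87% for Plk4, and 7.77% and 7.11% for Tpx2. Birc5 was seen in 16.2% and 15.8% and Cdca8 in 11.7% and 12.04% of these cells. Those shares serve as the reference for each gene, and the part of free RNA in them was not tested. Birc5 and Cdca8 still fell within this arc. Between the 0.1π bins centred at 1.85π and 1.95π, mean log2(value + 1) of Birc5 fell from 0.42 to 0.138 in culture 1. In culture 2 it fell from 0.44 to 0.166. For Cdca8 the values were 0.34 and 0.106 in culture 1 and 0.436 and 0.099 in culture 2.

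In the arc from π to 1.25π the picture was reversed. Cdca8 was detected in 98.6% of 1064 cells in culture 1 and 99.1% of 1120 in culture 2, Birc5 in 99.2% and 97.7%, and Tpx2 in 97.4% and 96.6%. Aurka was detected in 79.5% and 72.4%, Incenp in 80.5% and 66.9%, and Aurkb in 64.4% and 57.4%. Plk4 was detected in 55.1% and 44.6% there, and in more cells of the arc before it, 62.3% and 54.4% from 0.75π to π. Each of these shares is at least 5 times the share of the same gene near G1. The lower share in culture 2 for 6 of the 7 genes goes with its lower depth, and Cdca8 is the exception.

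**Figure D1:**
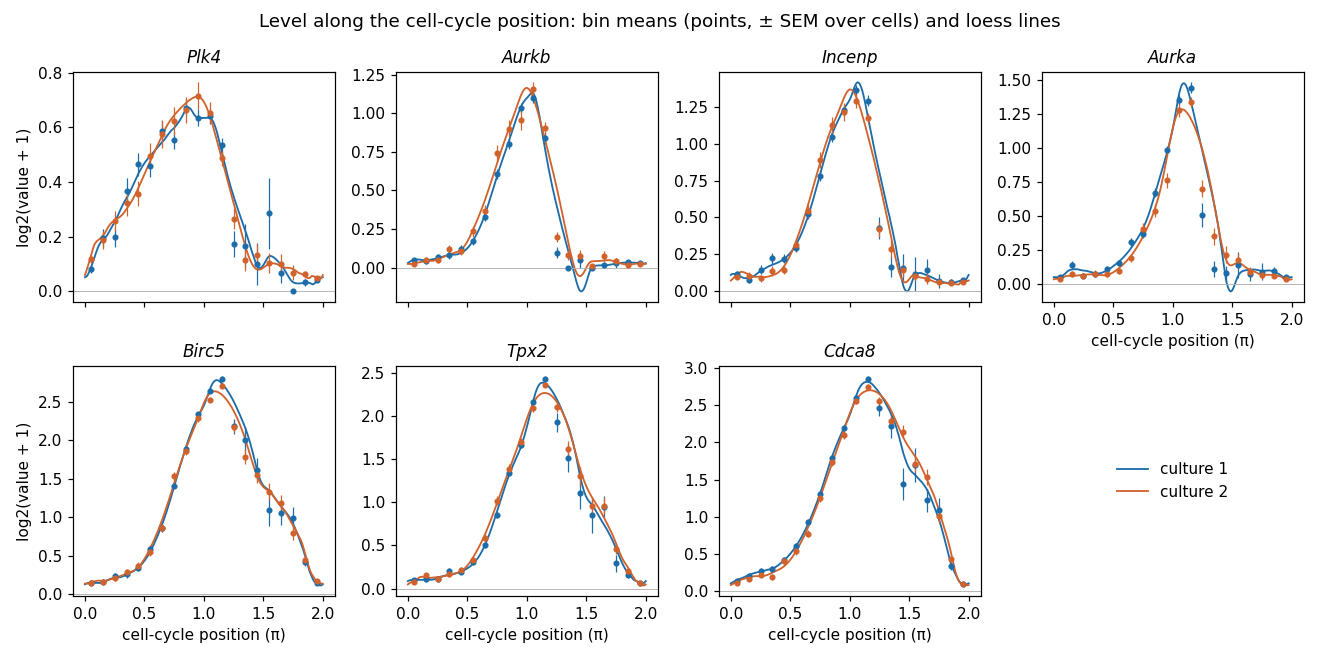
Mean log2(value + 1) of each gene in bins of the cell-cycle position (points, ± SEM over cells) and the periodic loess line of each culture, against the position in units of π. All 7 lines peak between 0.87π and 1.17π, and the lines of Cdca8, Birc5 and Tpx2 come down later than those of Aurka, Aurkb, Incenp and Plk4; where cells are few, near 1.45π, some lines dip below 0 although no value does.

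Along the loess line, Cdca8 varied by 2.72 and 2.61 on the log2(value + 1) scale in cultures 1 and 2 between its lowest and highest point. The range was 2.67 and 2.52 for Birc5 and 2.34 and 2.23 for Tpx2. The other 3 mitotic genes had smaller ranges, 1.53 and 1.25 for Aurka, 1.42 and 1.33 for Incenp and 1.28 and 1.22 for Aurkb. The smallest, 0.65 and 0.67, belonged to Plk4. The scale understates the change of genes with low values, so these ranges order the genes by difference in signal and not by fold. Some ranges are widened by lines that dip below 0, to -0.153 and -0.0541 for Aurkb. In culture 1 the lowest point was -0.0562 for Aurka and -0.00314 for Incenp. Cdca8, Birc5 and Tpx2 had the larger ranges in each culture with no overlap with the other 4. Aurka (1.39 ± 0.20) and Incenp (1.37 ± 0.07) changed places between the cultures. Cdca8 (2.67 ± 0.07) was above Birc5 (2.60 ± 0.10) in each culture, though their means differed by less than the SD of either gene between cultures.

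The line of Plk4 peaked first, at 0.87π and 0.945π (0.908π ± 0.053). Aurkb followed at 1.045π and 1.0π (1.02π ± 0.03), and Incenp, its scaffold, at 1.07π and 1.005π (1.04π ± 0.05). The kinase and its scaffold thus peaked close together. Aurka peaked at 1.095π and 1.08π (1.09π ± 0.01) and Birc5 at 1.105π and 1.09π (1.10π ± 0.01). Tpx2 came next, at 1.13π and 1.145π, and Cdca8 last, at 1.145π and 1.17π. The order was the same in both cultures, with the kinase and scaffold of the passenger complex ahead of its targeting subunits, and Aurka ahead of Tpx2. The second of these is lost when maxima are read from means of 0.1π bins in place of loess: Aurka, Birc5, Tpx2 and Cdca8 then share the bin centred at 1.15π in both cultures, and Aurkb and Incenp the one at 1.05π. Several steps are small against the 0.1π bins: Aurka and Birc5 differed by 0.01π in each culture, Aurkb and Incenp by 0.025π and 0.005π, and Tpx2 and Cdca8 by 0.015π and 0.025π. Some of these steps turned around in the means of cultures under other settings. Tpx2 came after Cdca8 with a loess span of 0.05 (1.1375π and 1.13π) and with a position computed without the members (1.1375π and 1.1325π). Birc5 came before Aurka with a span of 0.3 (1.195π and 1.2π). From the bin means, 14 of the 21 pairs, against 21, kept 1 sign in both cultures with a difference above its SD. From the first to the last maximum the genes spanned 0.275π and 0.225π, and without Plk4 0.1π and 0.17π.

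**Figure D2:**
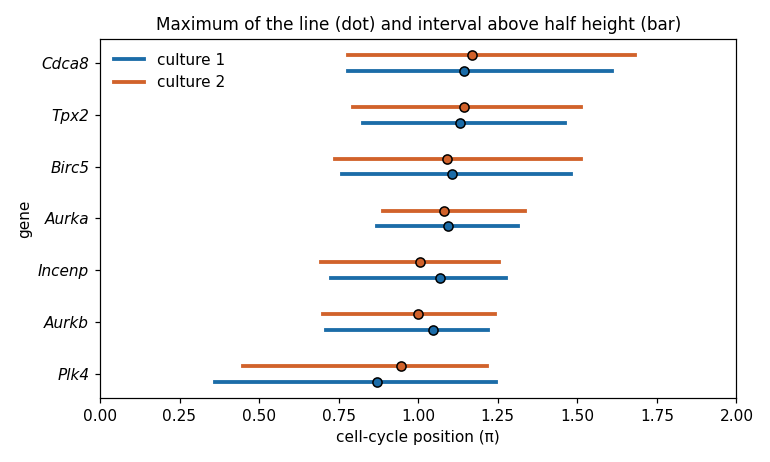
Position of the maximum of the loess line (dot) and the interval in which the line stood above the midpoint between its lowest and highest level (bar), in units of π, for each gene and culture. The maxima run from Plk4 at 0.908π to Cdca8 at 1.16π (means), and the right ends of the bars run from 1.215π to 1.68π.

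The genes differed more in when they came down than in when they peaked. The line of Plk4 crossed the midpoint of its range on the way up at 0.36π and 0.45π, before the other genes, and on the way down at 1.245π and 1.215π. Aurkb was above its midpoint from 0.71π to 1.22π and, in culture 2, between 0.70π and 1.24π, and Incenp from 0.725π to 1.275π and from 0.695π to 1.255π. Aurka had the narrowest interval, 0.445π wide in each culture, and came down at 1.315π and 1.335π. These positions were read from the lines only, which smooth over a stretch with few cells. In culture 1 the line of Aurka stood at 0.973 at 1.25π, where the mean of the 0.1π bin was 0.505. The order in which Aurka, Aurkb and Incenp came down was not examined with bins. Birc5 stayed above its midpoint until 1.48π and 1.51π and Tpx2 until 1.46π and 1.51π, after the 4 genes above had come down. Cdca8 stayed above until 1.61π and 1.68π, the latest of the 7 genes. The rise of Aurkb, Incenp, Birc5 and Cdca8, between 0.695π and 0.78π in both cultures, was closer together than their fall.

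**Figure D3:**
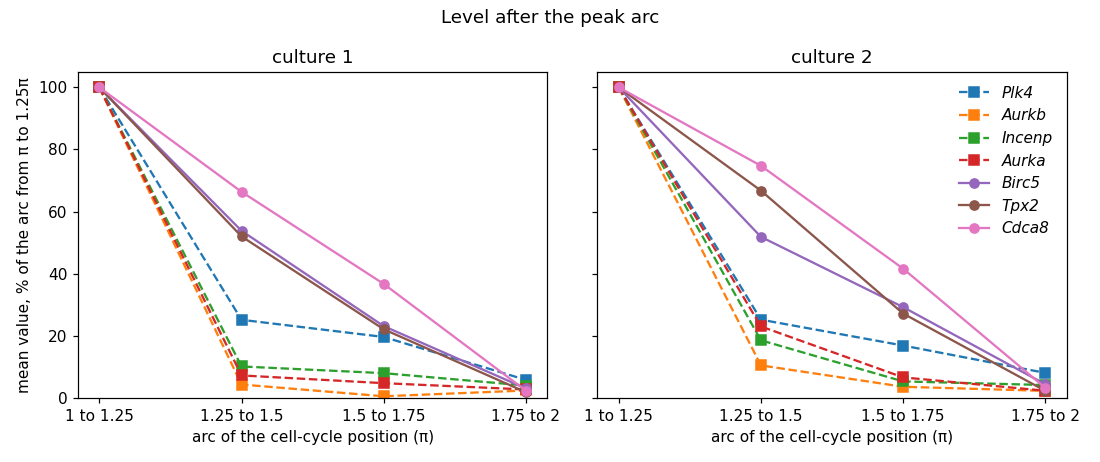
Mean value in each arc of 0.25π as a percent of the mean value from π to 1.25π, for each gene, in culture 1 (left) and culture 2 (right). Circles with solid lines (Birc5, Tpx2, Cdca8) stay at 51.9% or more from 1.25π to 1.5π and squares with dashed lines (Plk4, Aurkb, Incenp, Aurka) at 25.2% or less, and by the last arc every gene is below 10%.

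To measure this, the mean value (linear scale) from 1.25π to 1.5π was taken as a percent of that from π to 1.25π. This measure was chosen after the lines had been seen. In culture 1 Cdca8 went from 6.30 to 4.18 and in culture 2 it went from 6.04 to 4.51, so it kept 66.4% and 74.8%. Birc5 went from 6.19 to 3.33 and from 6.01 to 3.11, keeping 53.8% and 51.9%, and Tpx2 from 4.52 to 2.35 and from 4.37 to 2.92, keeping 52.0% and 66.8%. Aurkb, the kinase that Birc5 and Cdca8 bring to the centromere, went from 1.22 to 0.0526 and, in culture 2, 1.3 to 0.137, and kept 4.31% and 10.5%. Incenp kept 10.1% and 18.5%, Aurka 7.24% and 23.0%, and Plk4 25.2% and 25.2%. For Plk4 the reference arc is past its maximum: its mean value was 0.744 and 0.825 from 0.75π to π, 0.651 and 0.633 from π to 1.25π, and 0.164 and 0.159 from 1.25π to 1.5π. The same 3 genes kept more and the same 4 kept less in both cultures. These sets were formed from the values themselves, so their separation is a description. Keeping at least 50% in both cultures was common: 3 of the 7 members did, beside 47.3% of the 317 genes with a maximum from 0.75π to 1.5π (below). The divide runs through both partnerships, with Aurka apart from Tpx2 and the kinase and scaffold of the passenger complex apart from its targeting subunits.

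The arc from 1.25π to 1.5π is thinly filled, with 85 cells in culture 1 and 279 in culture 2, and its cells have fewer UMIs, a median of 14111 and 11882 against 20527 and 17813 from π to 1.25π. The part of depth in the result was examined only in cells of 10000 to 20000 UMIs, where 62 and 191 cells remained in that arc. There the lowest of Birc5, Cdca8 and Tpx2 kept 44.2% and 47.8%, and the highest of the other 4 kept 23.9% and 25.2%. The authors' position rests on cell-cycle genes, and which of the members entered it is not given in the sources used here. With the position computed anew in each culture from 86 S and G2M genes without the members (circular correlation with the authors' position 0.926 and 0.915), the lowest of the 3 kept 62.8% and 47.6% and the highest of the 4 kept 36.6% and 30.0%. The sets stayed apart in each culture, but in both of these settings Cdca8 alone kept 50% or more in both cultures. The 3 genes that kept more are also the 3 with the highest values at the peak (UMIs from transcript ends, not scaled by length), and the part of abundance in the result was not tested.

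The share of cells with a value above 0 showed the same division. From 1.25π to 1.5π, Cdca8 was detected in 84.7% and 97.5% of cells, Birc5 in 94.1% and 81.7%, and Tpx2 in 78.8% and 81.4%. Most cells of this arc therefore still held these 3 transcripts. Aurkb was detected in 4.71% of the 85 cells (exact 95% interval 1.3 to 11.6) and 8.24% of the 279 (5.30 to 12.1), where the G1 arc had 3.35% and 1.87%. The interval of culture 1 covers its G1 share and that of culture 2 lies above it. Aurka was detected in 10.6% and 23.3%, Incenp in 15.3% and 16.5% and Plk4 in 11.8% and 11.8%. In the arc after that, from 1.5π to 1.75π, Cdca8 was still detected in 81.3% of 64 cells and 78.8% of 189, Birc5 in 68.8% and 64.6%, and Tpx2 in 56.3% and 58.7%, each above its share near G1. Aurkb was detected in 1.56% and 3.17% of these cells and Aurka in 7.81% and 8.99%. The mean value from 1.5π to 1.75π was 36.7% and 41.6% of that from π to 1.25π for Cdca8, 23.1% and 29.2% for Birc5 and 22.1% and 27.2% for Tpx2, and at most 19.6% for the other 4 genes, the highest being Plk4 in culture 1.

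Cells of successive arcs differed in which passenger transcripts they held together. From π to 1.25π, transcripts of all 4 subunits, Aurkb, Incenp, Birc5 and Cdca8, were detected together in 59.5% of cells in culture 1 (exact 95% interval 56.5 to 62.5) and 46.5% in culture 2 (43.6 to 49.5). From 1.25π to 1.5π this share was 2.35% (0.286 to 8.24) and 3.23% (1.49 to 6.04). Among cells that held both Birc5 and Cdca8, those with neither Aurkb nor Incenp made up 14.9% of 1040 and 23.0% of 1084 from π to 1.25π, and 81.2% of 69 and 79.3% of 222 from 1.25π to 1.5π. On the rising side the share with neither was 58.7% of 46 cells and 80.0% of 35 from 0.25π to 0.5π, 26.9% and 39.5% from 0.5π to 0.75π, and 8.49% and 12.7% from 0.75π to π. Cells with Birc5 and Cdca8 but neither of the others thus occurred early on the rise as well as after the peak. Aurkb and Incenp have lower values than Birc5 and Cdca8 at the peak as well, and the part of detection in the shares with neither was not tested. All 4 cannot be found together in more cells than Aurkb alone, 4.71% and 8.24% from 1.25π to 1.5π. Whether transcripts occurred together more or less often than the shares of the single genes imply was not tested.

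Among all genes, the members stood high in how closely they followed the position. A fit of 2 harmonics of the position reached an R² of 0.05 in each of the cultures for 4.01% of the 10666 genes and for 7 of the 7 members. With the maximum between 0.75π and 1.5π in both cultures as well, the share was 2.97% of all genes, against 7 of the 7 members. By the lower R² of the cultures, Cdca8 ranked 1 of 10666 (0.75 in each culture), Tpx2 ranked 7 (0.705 and 0.70) and Birc5 ranked 8 (0.774 and 0.684). Aurka ranked 31 (0.465 and 0.425), Incenp 36 (0.474 and 0.408), Aurkb 44 (0.411 and 0.373) and Plk4 141 (0.219 and 0.201). Cell-cycle genes of the same cells define the position, so these values describe the genes and are not independent of it. With total UMIs in the fit, the partial R² of the position lay between 0.186 for Plk4 and 0.741 for Cdca8 (lower of the cultures). It is a share of the variance left after total UMIs, so its base differs from that of the values above.

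**Figure D4:**
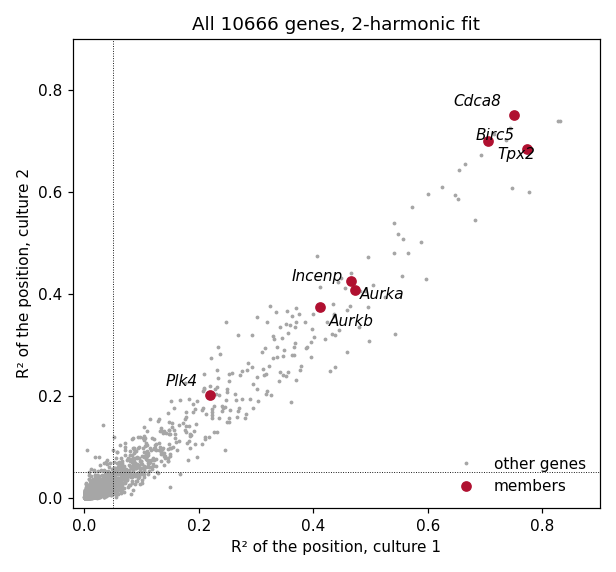
R² of the 2-harmonic fit of log2(value + 1) on the cell-cycle position in culture 1 (horizontal) and culture 2 (vertical) for all 10666 genes (grey) and the 7 members (red), with dotted lines at 0.05. Cdca8, Birc5 and Tpx2 lie near the upper end at 0.684 to 0.774, Aurka, Incenp and Aurkb at 0.373 to 0.474, and Plk4 at 0.201 to 0.219.

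The level kept after the peak was set beside that of the other genes with a maximum in the same stretch. Of the 317 genes called with a maximum between 0.75π and 1.5π, 47.3% kept at least 50% in both cultures, and 3 of the 7 members did. The median of the 317 genes was 50.9% in culture 1 (quartiles 24.7 and 77.7) and 56.3% in culture 2 (34.9 and 83.2). Aurkb, Incenp and Aurka were below the lower quartile in both cultures, Plk4 was below it in culture 2, and Cdca8, Birc5 and Tpx2 lay between the quartiles in both. Over all genes the median was 97.1% and 98.1%. Thus the fall of Aurkb, Incenp and Aurka was steep among these 317 genes, whereas what Birc5 and Tpx2 kept was near the middle. The 317 have maxima anywhere from 0.75π to 1.5π, and genes that peak where these members do were not compared separately.

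**Figure D5:**
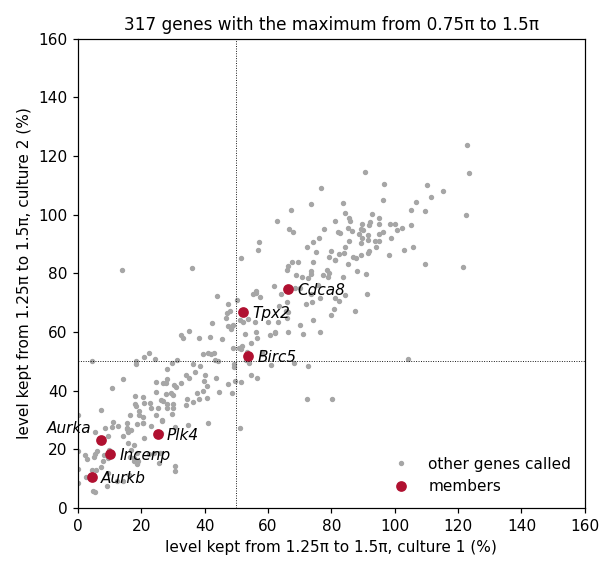
Mean value from 1.25π to 1.5π as a percent of that from π to 1.25π in culture 1 (horizontal) and culture 2 (vertical) for the 317 genes with a maximum from 0.75π to 1.5π (grey) and the 7 members (red), with dotted lines at 50%. Cdca8, Tpx2 and Birc5 lie above 50% on both axes, and Plk4, Aurka, Incenp and Aurkb lie at 25.2% or less on both.

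The stage calls that the authors deposited show the members from another side, although the Seurat method scores cells with Aurka, Aurkb, Birc5, Cdca8 and Tpx2 among its G2M genes. In mean log2(value + 1), Plk4, which is not on the Seurat lists, was 0.52 and 0.47 in cells called S, 0.57 and 0.46 in G2M and 0.06 and 0.07 in G1. Plk4 was thus about as high in S as in G2M. Tpx2 was 0.67 and 0.59 in S against 2.08 and 2.01 in G2M, and Aurka 0.33 and 0.22 against 1.2 and 0.99. Incenp, also not on those lists, was 0.58 and 0.49 in S and 1.23 and 0.94 in G2M. SchwabeCC called 480 and 562 cells between 1.75π and 2π as G2 or G2/M, and in them the members were far below their levels in cells with those calls from π to 1.25π. For Cdca8 the mean was 0.14 and 0.15, against 0.13 and 0.16 in the other cells of the arc, and 2.71 and 2.73 in cells with the same calls from π to 1.25π. Aurka was at 0.05 and 0.04 in those cells, against 0.05 and 0.04 in the others of the arc. Aurkb was somewhat higher than in those others, at 0.037 and 0.051 against 0.026 and 0.019, as was Incenp, at 0.086 and 0.082 against 0.067 and 0.059. In culture 2 Plk4 (0.068 against 0.046) and Birc5 (0.25 against 0.21) were higher too, whereas from π to 1.25π Aurkb was at 0.88 and 0.91 and Plk4 at 0.59 and 0.52. SchwabeCC calls stages from lists of genes high in each stage, and which members are on those lists was not examined. These small differences can therefore not be taken as independent of the calls.

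Across cells of a culture, the 21 pairs of members had a Pearson r of log2(value + 1) in culture 1 of 0.29 to 0.78, and in culture 2 of 0.25 to 0.75, as pairs that share libraries, depth and the cycle. Within the arc from π to 1.25π, after the loess line was subtracted, r had a median of 0.17 and 0.14. The pair with the highest value in culture 2 was Aurkb and Incenp (0.40 and 0.33), and in culture 1 it was Aurka and Aurkb (0.43 and 0.32). Aurka and Incenp stood at 0.39 and 0.30. Birc5 and Cdca8 were at 0.19 and 0.23 and Aurkb and Birc5 at 0.20 and 0.14. Within this arc Aurka, Aurkb and Incenp thus had higher values with each other than Aurkb had with the targeting subunit Birc5, in each culture. The lines miss part of the fall at the end of the arc. At 1.25π in culture 1 they stood at 0.973 for Aurka and 0.406 for Aurkb, where the 0.1π bin means were 0.505 and 0.097. For Birc5 the line was at 2.51 and the bin mean at 2.18. The residuals thus still hold some of the position, and its part in these r values was not tested.

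The genes most like each member, by the lower r of the 2 cultures over all cells, overlapped between the members, and Cenpf was among the 3 nearest of every member but Plk4. For Birc5, Cdca8 and Tpx2 the 3 nearest were Ube2c, which carries ubiquitin for the anaphase-promoting complex, the kinetochore protein Cenpf and the chromatin protein Hmgb2, with r from 0.70 to 0.79. For Aurka they were Cenpf, Ube2c and the midzone protein Prc1 (0.62 to 0.67). For Aurkb and Incenp they were Top2a, the DNA topoisomerase of condensing chromosomes, with Prc1 and Cenpf (0.56 to 0.68). For Plk4 they were Top2a, the replication factor Pclaf and the condensin subunit Smc2 (0.35 to 0.44).

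Partners, regulators and substrates were taken from lists grouped by role. Of 111 such genes 97 had values, and 54 of the 97 reached that R² of 0.05 in each culture, 53 of them with a maximum between 0.75π and 1.5π. Over all 10666 genes the shares were 4.01% and 2.97%, and 4.01% is also the base for the counts of the single lists below. The median of the lower R² of the 97 was 0.055, against 0.0018 over all genes. Of the 53, 12 kept at least 50% of the level after 1.25π in both cultures, where 47.3% of the 317 genes with a maximum in that stretch did; the 53 are among the 317, and the difference was not tested.

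Of 12 partners of Aurka and Tpx2, 9 were called. Tacc3, the microtubule-binding substrate of Aurka, kept 123% and 124% and had its fitted maximum at 1.365π and 1.395π, later than all members. Its binding partner Ckap5 kept 84.2% and 72.6% and Rangap1, the Ran GTPase activator, 90.9% and 79.8%. Bora, a cofactor of Aurka, kept 16.1% and 11.2%, and the importin Kpna2, which binds Tpx2, 17.6% and 17.1%. Partners of 1 pathway thus lay at both ends of the range.

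Of 9 genes that recruit or oppose the passenger complex 8 were called, and of 15 substrates and centralspindlin genes 14. The recruiters Sgo1, Sgo2a and Ttk had low values, keeping 7.85% and 16.1%, 8.22% and 18.1%, and 6.08% and 19.4%. Bub1, the kinase that marks centromeres for the complex, kept 44.1% and 50.2%. The phosphatase subunit Ppp1cc kept 87.9% and 81.0% and the exportin Xpo1 85.7% and 90.9%, the 2 genes of their list at 50% or more in both cultures. Among the substrates, the centromeric histone Cenpa kept 89.2% and 95.3%, Racgap1 of centralspindlin kept 77.2% and 79.5% and the microtubule regulator Stmn1 kept 89.9% and 94.7%. Kif23, the centralspindlin motor that pairs with Racgap1, kept 4.90% and 17.3%, and the kinetochore protein Ndc80 kept 9.49% and 17.0%. The transcripts of the 2 parts of centralspindlin thus lay on different sides of the 50% line.

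Of 13 Plk1 substrates and regulators 9 were called. The phosphatase Cdc25c kept 101% and 94.9%, cyclin B1 (Ccnb1) 41.1% and 52.7%, and the inhibitor of the anaphase-promoting complex Fbxo5 4.64% and 5.84%. Of 13 genes of centriole duplication around Plk4, 3 were called, beside 4.01% of all genes. They were Stil, Sass6 and Pcnt, with fitted maxima between 0.845π and 1.01π, the stretch in which Plk4 had 0.89π and 0.86π by the same fit. The centriole genes Cep152, Cep63, Cep135 and Cep120 were not called. Of 14 genes of protein destruction 3 were called: Cdc20, which activates the anaphase-promoting complex (kept 57.2% and 90.8%), Ube2c (34.1% and 35.2%) and Fzr1 (49.5% and 43.4%). The complex's core subunits Anapc1, Anapc2, Anapc10, Anapc11, Cdc16, Cdc23 and Cdc27 were not called. None of the 4 other family members, Plk2, Birc2, Birc6 and Xiap, was called, a list too small to set against the 4.01% of all genes. Of 17 transcription genes 8 were called, among them Mybl2, Foxm1 and E2f8, with fitted maxima of 0.78π and 0.755π, 1.03π and 1.03π, and 0.785π and 0.82π.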

How the data were processed

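Single-cell RNA-seq of 2 replicate cultures of 1 condition was analysed. The authors quantified spliced counts with Alevin (Salmon 1.3.0, with Seurat 3.2.2 also in the submitters' processing notes) on GRCm38, removed outlying cells and rare genes, and deposited a signal normalized for the depth of each cell. The total UMIs that the authors deposited for each cell are sums of estimated counts (118762551 in culture 1, 110527832 in culture 2), and the position and stages are further columns of the deposited table. Values were not whole reads, so no count model was run and cells could not be thinned.

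Values were taken as log2(value + 1), a pseudocount of 1. In each culture a periodic loess line of degree 2 was fitted on tripled data and read at 400 positions, with a span of 0.1 (30% of a culture's cells at each point), since 0.3 takes 90%. Every gene was fitted with 2 harmonics of the position and called at an R² of 0.05 in both cultures. Means and shares were taken in 8 arcs of 0.25π, with exact 95% Clopper-Pearson intervals for shares that cover counting error only. No p-value was computed. All per-sample columns were mapped to a culture, and no doublet caller was run beyond the authors' filter. The fits were tested on simulated data. Python 3.11.15, numpy 2.4.6, scipy 1.17.1 and pandas 2.3.3 were used. Symbols were found for 10662 of 10666 genes, coordinates come from an earlier GENCODE release than the authors used, and 4 of 7 members had a RefSeq promoter window.

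The members and lists were chosen with earlier results of these data known. The genes named are the members, the listed partners and cell type markers, and the 3 genes with the highest correlation with each member (by the lower r of the cultures). 9930104L06Rik and AC132253.8 are named because they overlap members. The percent kept after 1.25π was added after the data had been seen. Alternatives were other spans, bins, other scales, thresholds, a position without the members, a range of UMIs, depth in the fit, a filter on genes and each culture left out.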

Additional observations from a re-analysis of the deposited data

How the results depend on the processing

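All 7 members were called under each of the 12 alternatives tried for that count. Some of these could not lower it: an R² of at least 0.02, a single culture, and a filter at 5% of cells that every member passes. Of all genes, 8.34% were called at an R² of at least 0.02 and 1.32% at 0.2. Their maxima spanned 0.25π (mean of cultures), and 0.41π with a loess span of 0.3, which also gave a median R² of 0.428 and a median log2 range of 1.12 in place of 0.469 and 1.43. A pseudocount of 0.1 gave a median range of 3.69, as its scale stretches low values. The median R² was 0.411 on linear values and 0.406 in cells of 10000 to 20000 UMIs. With 1 culture left out, the span was 0.225π to 0.275π, the median R² 0.445 to 0.492 and the range 1.33 to 1.53. Of 63 positions of maxima under alternatives, 46 moved by less than the SD between cultures, and the largest shift was 0.1125π. The 46 include every position with 1 culture left out, whose shift from the mean of cultures cannot exceed that SD. The gap between the lowest percent kept by Birc5, Cdca8 and Tpx2 and the highest of the other 4 was 27.7 percentage points (means of cultures), 27.7 with narrower arcs, 21.9 with the position without the members, 22.3 in cells of 10000 to 20000 UMIs, 42.2 on mean log2 values, 58.6 on shares of cells, and 26.7 to 26.9 with 1 culture left out. The sets of genes and the settings for this gap were chosen after seeing the data. Where no cause is named, the cause was not tested. No paired analysis was possible because all samples belong to 1 group. Outliers could not be tested among 2 cultures. Depth limits most the arcs from 1.25π to 1.75π, with 64 to 279 cells a culture, and culture 1 has the deeper cells but the fewer there.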
